A study of Homo sapiens with 16 samples.

Results

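Metallothioneins are small cysteine-rich proteins that hold zinc, copper and cadmium ions in clusters of thiolates. The 11 transcript clusters described here carry the symbol of 1 of 10 listed metallothionein genes (MT1A, MT1B, MT1E, MT1F, MT1G, MT1H, MT1M, MT1X, MT2A and MT3), out of 33297 clusters on the array. MT2A was measured by 3 clusters, each of the other named genes by 1, and no cluster named MT1A, so that 9 of the 10 genes have a value. None of the 11 clusters carried a second symbol. The members were chosen by gene symbol, with no limit on any measured value. The family itself was selected from earlier results of these same arrays, in which its levels were already known. Its differences and adjusted p values are therefore given as a description and are not independent support for any of them.

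The study profiled total RNA of 4 groups, with 4 Affymetrix Human Gene 1.0 ST arrays each. A375 cells, a human amelanotic melanoma line, and PCDNA3 cells, which are A375 cells carrying the empty pcDNA3 vector, were the controls. A7 and G10 are A375 cells stably transfected with pcDNA3 holding human catalase cDNA, each grown out as a single clone by clonal dilution, so that an effect of transfection and one of the particular clone cannot be told apart. The 3 transfected lines were kept in geneticin and the A375 cells were not, all were harvested before confluence, and the medium held insulin and fetal bovine serum. The labels call the 4 arrays of a group biological replicates. The control against which the clones were set gives A375 and PCDNA3 equal weight, and both clones share these 8 control arrays. Values are log2 intensities summarized by RMA, a difference of 1 is a doubling of the signal, and a call means an adjusted p under 0.05 in limma over all clusters. Clusters of different genes have different probes, so their levels were not ranked against each other.

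Transcription of the MT1 and MT2A genes is switched on by the zinc-sensing factor MTF1, which binds metal response elements in their promoters, and also by glucocorticoids and oxidants. MT1 and MT2A proteins buffer zinc in most cell types, and their thiolates react with oxidants. MT3 is known mainly from the brain and is little induced by metals. In melanoma, metallothionein staining of primary tumours has been studied as a prognostic marker.

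The promoters show how closely the metal response elements are packed, and so they are printed here for the 4 of 10 listed genes that had an entry in RefSeq (GRCh38.p14). The 250 bases before the start of MT2A (chr16:56608334-56608583), MT1B (chr16:56651636-56651885), MT1H (chr16:56669564-56669813) and MT1X (chr16:56682220-56682469) all lie on the + strand. Capitals mark the core of the metal response element, searched as TGCACNC or TGCGCNC on both strands.
MT2A: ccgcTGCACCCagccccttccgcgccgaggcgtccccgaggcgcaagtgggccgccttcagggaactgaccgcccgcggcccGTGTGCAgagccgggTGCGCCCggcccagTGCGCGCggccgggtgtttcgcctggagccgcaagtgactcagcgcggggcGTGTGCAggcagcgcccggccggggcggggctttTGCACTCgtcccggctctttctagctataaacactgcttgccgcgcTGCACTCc
MT1B: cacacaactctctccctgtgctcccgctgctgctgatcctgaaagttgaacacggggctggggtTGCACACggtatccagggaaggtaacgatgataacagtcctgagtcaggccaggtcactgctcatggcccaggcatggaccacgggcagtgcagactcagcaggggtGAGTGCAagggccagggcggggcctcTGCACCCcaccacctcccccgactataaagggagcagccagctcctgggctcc
MT1H: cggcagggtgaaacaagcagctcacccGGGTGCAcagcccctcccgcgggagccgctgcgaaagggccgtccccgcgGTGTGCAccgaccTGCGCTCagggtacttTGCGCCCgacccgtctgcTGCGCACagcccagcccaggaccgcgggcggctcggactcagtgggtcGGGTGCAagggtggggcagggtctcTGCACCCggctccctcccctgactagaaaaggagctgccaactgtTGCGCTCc
MT1X: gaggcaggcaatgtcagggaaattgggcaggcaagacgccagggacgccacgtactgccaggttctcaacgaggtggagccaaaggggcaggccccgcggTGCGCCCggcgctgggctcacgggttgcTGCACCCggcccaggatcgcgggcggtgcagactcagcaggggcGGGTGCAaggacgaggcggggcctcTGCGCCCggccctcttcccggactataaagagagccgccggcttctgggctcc
MT2A held 7 such matches, MT1B held 3, MT1H held 8 and MT1X held 4. Of 35116 RefSeq promoters of the same length, 24.8% held at least 1 match, 1.58% at least 3, 0.37% at least 4, 0.0313% at least 7 and 0.0171% at least 8. A pair of these matches stood at like places in the 3 MT1 genes. Counted from the first base of the match back from the start, MT1B had matches at 53 and 79 bases, MT1H at 53 and 78 bases and MT1X at 53 and 78 bases. In MT2A the corresponding pair stood at 54 and 88 bases.

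A TATA box (TATAAA, in 10.7% of all promoters) was found 29 bases before the start of MT2A and 30 bases before those of MT1B and MT1X, and not in the window of MT1H. The GC box (GGGCGG, in 42.6% of all promoters), the letters bound by SP1, occurred in all 4 windows. The AP-1 element (TGACTCA, in 4.2%) occurred in MT2A, 104 bases before the start, and in MT1B, 146 bases before the start. The antioxidant response element core (TGACNNNGC, in 10.9%) occurred in MT2A, MT1B and MT1X, and in MT2A it overlaps the AP-1 match. These are matches of letters and not measured binding sites.

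The 10 genes lie within 94.7 kb of chromosome 16 (56589528 to 56684196, GRCh38.p14), in the order MT3, MT2A, MT1E, MT1M, MT1A, MT1B, MT1F, MT1G, MT1H and MT1X. They are close copies of each other, so a probe of 1 member can also take up RNA of another, and the 3 MT2A clusters are not independent readings. The array annotation ties all 3 to the same MT2A transcript but gives no genome position for their probes, so clusters 8095362 and 8095376 may lie at a copy of MT2A elsewhere in the genome. Olfactory receptor genes, hardly transcribed outside the nose, gave a level for unexpressed genes (5.18, the 95th percentile of 381 clusters). All 3 MT2A clusters and those of MT1X, MT1G, MT1F, MT1E, MT1B, MT1H and MT3 had means above that level in every group. MT1M lay below it in every group.

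Array medians lay between 5.85 and 5.97, and arrays of a group correlated at r of 0.9844 to 0.9949 over all clusters. CAT, the transfected gene, had means of 8.73 ± 0.20 in A375, 8.56 ± 0.10 in PCDNA3, 9.02 ± 0.08 in A7 and 8.27 ± 0.38 in G10 (SD, n = 4). Its difference from control was 0.37 in A7 (adjusted p = 0.124) and -0.38 in G10 (adjusted p = 0.0526), neither of which was called. Whether the CAT probes reach the transfected cDNA is not known from the sources used here, so these values do not check the labels. Between the clones, CAT was lower in G10, at -0.75 (adjusted p = 0.00221). The G10 arrays fell into pairs. Arrays 1 and 2 correlated at 0.9941 and arrays 3 and 4 at 0.9918, but arrays of different pairs at 0.9844 to 0.9871, with 1196 to 1480 clusters over 1 log2 unit apart, against 377 to 956 between arrays within the other groups. A7 arrays showed a smaller split of the same kind. Arrays 1 and 2 of A7 correlated at 0.9940 and arrays 3 and 4 at 0.9949. A7 arrays of different pairs correlated at 0.9875 to 0.9926, with 500 to 956 clusters over 1 log2 unit apart. Results in G10 are also given with either pair of G10 arrays left out, a choice made after seeing the data. No pair of A7 arrays was left out.

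Of 8 melanocytic markers 7 were measured, and 6 lay above the olfactory receptor level in every group, among them SOX10 and MITF, while TYR lay below it in A375 at 5.14. Of 13 markers of blood, epithelial, endothelial and stromal cells 5 did (CD14, KRT18, LUM, PDGFRB and ACTA2), while PTPRC, CD3E and EPCAM stayed below it in every group, and none of the 13 was called in G10 against control. LUM and ACTA2, genes of stromal cells, were higher in A7 against control (0.91, adjusted p = 0.0172, and 0.78, adjusted p = 0.0480). Of the 7 melanocytic markers 2 were higher in G10 against control and 0 lower, PMEL at 2.46 (adjusted p = 0.000939) and TYRP1 at 1.58 (4.43e-05). In A7 3 were higher and 0 lower, TYRP1 at 2.35 (2.33e-06), TYR at 1.81 (0.0299) and MLANA at 1.29 (0.0358). TYRP1 was also higher in PCDNA3 than in A375, at 1.28 (0.0432).

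In G10 cells the metallothioneins were lower than in the controls, and in A7 cells no member passed the test. Of the 11 clusters, 9 were called lower and 0 higher in G10 against control, beside 7.90% of all clusters lower and 9.92% higher. These 9 clusters stand for MT2A, MT1X, MT1G, MT1F, MT1H, MT1E and MT1B, while MT3 and MT1M were not called. The group mean of G10 was the lowest of the 4 groups in 11 of 11 clusters. The lower mean of a culture can come from fewer cells with the transcript or from less transcript per cell, and these cannot be told apart here.

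**Figure D1:**
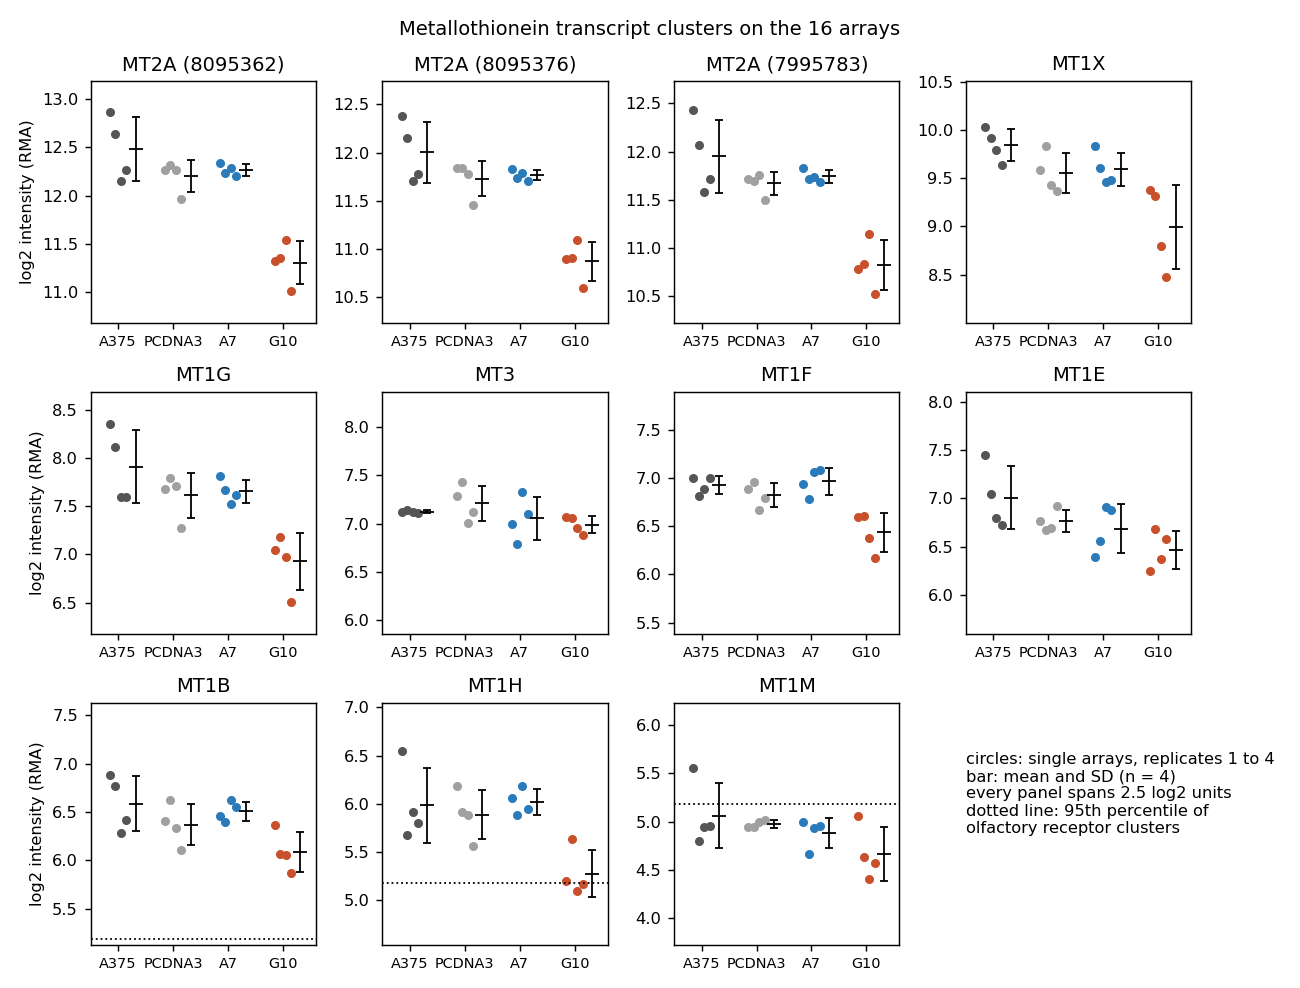
Log2 intensity (RMA) of each metallothionein cluster on the 16 arrays, by group, with the mean and SD of 4 arrays beside the circles and the olfactory receptor level of 5.18 as a dotted line where it falls in the panel. All 4 G10 arrays sit below the other 12 arrays for the 3 MT2A clusters, MT1F and MT1G, and MT3 shows little separation.

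MT2A, the main inducible metallothionein of most human cells, showed the largest differences. In cluster 8095362 the A375 arrays read 12.86, 12.64, 12.15 and 12.26, and the PCDNA3 arrays 12.26, 12.32, 12.26 and 11.96. The A7 arrays read 12.34, 12.23, 12.28 and 12.20. The G10 arrays read 11.32, 11.35, 11.54 and 11.01, all below the lowest of the other 12 arrays. Against control, MT2A was lower in G10 by -1.03 (standard error 0.13, adjusted p = 3.27e-05), which is a 2.05-fold lower signal. The other MT2A clusters gave -0.99 (standard error 0.12, adjusted p = 3.61e-05, cluster 8095376) and -0.99 (standard error 0.14, adjusted p = 0.000103, cluster 7995783), again with no overlap between G10 and the controls.

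MT1G had the next largest difference. Its arrays read 8.35, 8.11, 7.59 and 7.59 in A375, 7.68, 7.79, 7.71 and 7.27 in PCDNA3, and 7.81, 7.67, 7.52 and 7.62 in A7. In G10 they read 7.05, 7.18, 6.97 and 6.51, below all the others. The difference from control was -0.84 (standard error 0.15, adjusted p = 0.00112). Its median Pearson r with 10 other clusters was 0.86 over the 16 arrays and 0.67 once each group's mean was subtracted. MT2A counts 3 times among those 10 clusters, with r of 0.95 to 0.96 over the 16 arrays. The medians of the MT2A clusters, 0.80 to 0.83, leave out its own clusters. MT1G and MT2A were therefore not ranked by how closely they followed the rest. These points share arrays and normalization, and the values are descriptions.

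MT1F separated the groups by less but with little spread. It read 7.0, 6.81, 6.88 and 7.0 in A375, 6.88, 6.96, 6.67 and 6.79 in PCDNA3, and 6.94, 6.78, 7.06 and 7.08 in A7. The G10 arrays, at 6.59, 6.60, 6.38 and 6.17, did not reach the lowest control array. The difference in G10 was -0.44 (standard error 0.09, adjusted p = 0.00308). With MT1F, 5 of the 11 clusters (the 3 of MT2A, MT1G and MT1F) had every G10 array below every control array, beside 4.35% of all clusters.

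MT1X varied more among the G10 arrays than any other member. It read 10.03, 9.92, 9.79 and 9.64 in A375, 9.58, 9.83, 9.43 and 9.37 in PCDNA3, and 9.83, 9.60, 9.46 and 9.48 in A7. In G10 the first 2 arrays, at 9.38 and 9.32, touched the lower end of the controls, and the others, at 8.80 and 8.48, lay well under it. The SD of MT1X in G10 was 0.43, against 0.17 to 0.20 in the other groups. Its difference from control was -0.70 (standard error 0.15, adjusted p = 0.00359).

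MT1H had 1 G10 array within the range of the controls. The values were 6.55, 5.68, 5.92 and 5.80 in A375, 6.19, 5.92, 5.89 and 5.56 in PCDNA3, 6.06, 5.88, 6.19 and 5.95 in A7, and 5.20, 5.64, 5.10 and 5.17 in G10. The G10 mean of 5.27 was just above the olfactory receptor level. The difference from control was -0.66 (standard error 0.15, adjusted p = 0.00611).

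MT1E and MT1B were called in G10 by a narrow margin. MT1E read 7.45, 7.05, 6.80 and 6.73 in A375, 6.77, 6.67, 6.69 and 6.92 in PCDNA3, 6.39, 6.56, 6.91 and 6.88 in A7, and 6.25, 6.68, 6.37 and 6.58 in G10. MT1B read 6.88, 6.77, 6.28 and 6.42 in A375, 6.41, 6.62, 6.33 and 6.11 in PCDNA3, 6.46, 6.40, 6.62 and 6.55 in A7, and 6.37, 6.07, 6.05 and 5.87 in G10. For both genes the G10 arrays overlapped the controls. The differences were -0.42 for MT1E (standard error 0.14, adjusted p = 0.0434) and -0.39 for MT1B (standard error 0.12, adjusted p = 0.0400). Without A375 replicate 1 they were -0.34 for MT1E (adjusted p = 0.0607) and -0.34 for MT1B (adjusted p = 0.0696). The call of MT1E was also lost without A375 replicate 2, any single PCDNA3 array, or G10 replicate 1, 3 or 4, and that of MT1B without A375 replicate 2, PCDNA3 replicate 1, 2 or 3, A7 replicate 1, or G10 replicate 2, 3 or 4. Over 27 alternatives the adjusted p ranged from 0.0241 to 0.259 for MT1E and from 0.0186 to 0.241 for MT1B.

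MT2A and MT1G were called against control whichever pair of G10 arrays was left out, and the other members were not. In 7 of the 11 clusters G10 arrays 1 and 2 both lay above arrays 3 and 4, and in 0 the reverse held. With arrays 3 and 4 left out, 4 of the 11 clusters were called lower against control, beside 10.3% of all clusters. These were the 3 of MT2A, at -1.0, -1.0 and -0.96 (adjusted p of 0.000297 to 0.000471), and MT1G at -0.65 (adjusted p = 0.0208). MT1F (-0.28, adjusted p = 0.0615), MT1X (-0.35, 0.0845), MT1H (-0.52, 0.0912), MT1E (-0.42, 0.133) and MT1B (-0.26, 0.313) were not called. With arrays 1 and 2 left out 9 were lower, beside 5.96% of all clusters, with MT2A at -0.97 to -1.06, MT1X at -1.06 (adjusted p = 0.000223) and MT1E not called (-0.41, 0.149). MT1M was called in its place, with both sides below the olfactory receptor level.

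MT3, the brain member, was not called. Its arrays read 7.12, 7.14, 7.12 and 7.11 in A375, 7.28, 7.43, 7.01 and 7.12 in PCDNA3, 7.0, 6.79, 7.33 and 7.10 in A7, and 7.07, 7.06, 6.95 and 6.88 in G10, so that all groups but A375 and G10 overlapped. Its difference in G10 was -0.18 with a 95% interval from -0.38 to 0.03 (adjusted p = 0.253). MT3 also followed the other members least, with a median r of 0.41 over the 16 arrays. MT1M gave means of 5.06, 4.98, 4.88 and 4.67 in A375, PCDNA3, A7 and G10, all below the olfactory receptor level, so no size is given for it (adjusted p = 0.0901 in G10).

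**Figure D2:**
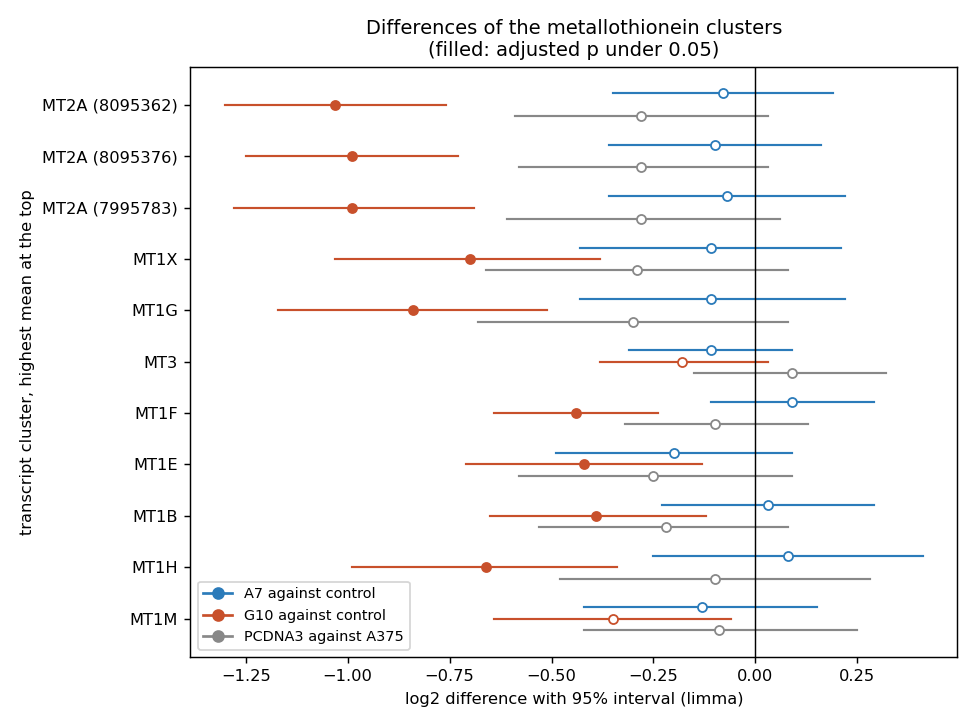
Log2 difference (x axis, with 95% interval from limma) of each metallothionein cluster in A7 and G10 against control and in PCDNA3 against A375, filled where the adjusted p is under 0.05. The G10 points run from -1.03 for MT2A to -0.18 for MT3 with 9 of 11 filled, and the A7 points lie between -0.20 and 0.09 with none filled. MT1M lay below the olfactory receptor level in every group.

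In A7 cells no metallothionein was called. In limma 0 of the 11 clusters were called in A7 against control, beside 2.23% of all clusters lower and 3.46% higher. An unadjusted p under 0.05 was found for 0 of the 11, beside 5679 of all 33297 clusters. With so few clusters, of genes that are close copies, this count does not set the members apart from the array. None of 28 alternative fits (27 for MT1M) called any of the 11 clusters. The differences ran from -0.20 for MT1E (95% interval -0.49 to 0.09) to 0.09 for MT1F (95% interval -0.11 to 0.29). For MT2A (8095362) the difference was -0.08 with a 95% interval from -0.35 to 0.19. The intervals are wide enough to hold small changes in either direction.

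The controls also did not differ by a call. Of the 11 clusters 0 were called in PCDNA3 against A375 in limma, beside 0.0781% of all clusters lower and 0.0450% higher. None of 26 alternative fits (25 for MT1M) called any. An unadjusted p under 0.05 was found for 0 of the 11, beside 4198 of all 33297 clusters. This count too does not set the members apart from the array. Of the 11 differences 10 were negative, with a median difference of -0.25 over the 11 clusters beside 0.01 over all clusters. A375 array 1 was the highest of all 16 arrays in 9 of the 11 clusters, for MT2A (8095362) at 12.86, which widens the A375 group. Without A375 replicate 1, MT2A (8095362) differed in G10 by -0.97 (adjusted p = 3.82e-05) and MT1G by -0.76 (adjusted p = 0.00161).

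Set against each other, the clones differed in 7 of the 11 clusters. All 7 were lower in G10 than in A7, beside 7.38% of all clusters lower, and 0 were higher, beside 7.83%. This comparison uses no control array for its means. MT2A differed by -0.95 (cluster 8095362, standard error 0.15, adjusted p = 0.000287), MT1H by -0.75 (standard error 0.18, adjusted p = 0.00835), MT1G by -0.73 (standard error 0.18, adjusted p = 0.00985), MT1X by -0.60 (standard error 0.18, adjusted p = 0.0294) and MT1F by -0.53 (standard error 0.11, adjusted p = 0.00253). Every G10 array lay below every A7 array in 8 of the 11 clusters, beside 8.48% of all clusters. Markers that were also lower in G10 than A7 were LUM at -0.94 (adjusted p = 0.0147), ACTA2 at -0.83 (0.0344), TYR at -1.65 (0.0486) and TYRP1 at -0.77 (0.0334). Their part in the metallothionein values was not tested. TYRP1 was higher than control in both clones, by 1.58 in G10 and 2.35 in A7. DCN was called higher in G10 than A7, with both sides below the olfactory receptor level. The eighth cluster without overlap was MT1B, at -0.42 (adjusted p = 0.0619). MT1E differed by -0.22 (95% interval -0.55 to 0.12) and MT3 by -0.07 (95% interval -0.30 to 0.17). MT1X did not pass when A7 replicate 1 or 2, or G10 replicate 3 or 4, was left out, and its adjusted p ranged from 0.00380 to 0.102 over 25 alternatives. With G10 arrays 3 and 4 left out, 4 of the 11 clusters stayed lower than A7, beside 9.94% of all clusters (the 3 of MT2A, and MT1F at -0.37, adjusted p = 0.0270). MT1G (-0.54, adjusted p = 0.0825), MT1H (-0.60, 0.0799) and MT1X (-0.24, 0.336) were then not called. With G10 arrays 1 and 2 left out 8 were lower, beside 7.08% of all clusters.

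The order of the group means was much alike among the members. A375 had the highest mean in 8 of the 11 clusters, A7 in 2 (MT1F and MT1H) and PCDNA3 in 1 (MT3). Averaged over the 10 clusters above the olfactory receptor level, the log2 value was 8.78 ± 0.24 in A375, 8.63 ± 0.06 in A7, 8.58 ± 0.13 in PCDNA3 and 8.02 ± 0.17 in G10 (SD, n = 4). Of these 10 clusters 3 are of MT2A, so MT2A has more weight in the average than any other gene. The highest G10 array had an average of 8.16 and the lowest array of the other groups 8.41. A375, A7 and PCDNA3 overlapped, and no call separated them. G10 replicate 4 had the lowest value of all 16 arrays in 7 of the 11 clusters.

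Other genes and pseudogenes of the family, taken by symbol, gave 7 further clusters, of which MT1P3 was added after its value was seen. All 7 were called lower in G10 against control, beside 7.90% of all clusters, and none in A7. They were MT1P3, MT1DP, MT1JP and MT1IP, which are pseudogenes, the MT1-like gene MT1HL1, MT4, which is known from squamous epithelium, and a cluster named for both MT1L and NUTF2, a nuclear transport factor. MT1P3 read 6.71, 6.30, 6.05 and 6.15 in A375, 6.01, 6.41, 6.10 and 6.14 in PCDNA3, 6.07, 6.15, 6.17 and 6.03 in A7, and 5.12, 5.14, 5.49 and 5.81 in G10. Its difference in G10 was -0.85 (adjusted p = 0.000365), and that of MT1DP was -0.72 (adjusted p = 0.000238), both without overlap between G10 and control. The cluster of NUTF2 and MT1L gave -0.59 (adjusted p = 0.0158), MT1HL1 gave -0.54 (adjusted p = 0.0406) and MT1IP gave -0.44 (adjusted p = 0.00658). MT1JP fell to below the olfactory receptor level, by at least 0.23 (measured difference -0.46, adjusted p = 0.0405). MT4 passed the test (adjusted p = 0.0491) with both sides below that level, so no size is given. Pseudogenes share long stretches with the genes they were copied from, and whether their probes read the transcripts of MT1 genes was not tested. With G10 arrays 3 and 4 left out 3 of the 7 stayed lower than control (MT1P3 at -1.11, MT1DP at -0.70 and MT4), beside 10.3% of all clusters. With arrays 1 and 2 left out 4 did (MT1P3 at -0.59, MT1DP at -0.73, MT1IP at -0.54 and the cluster of NUTF2 and MT1L at -0.87), beside 5.96%. Among 27 alternatives that left out at most 1 array or changed the fit, the calls of MT1P3, MT1DP and MT1IP held, while those of MT1HL1, MT1JP and MT4 were each lost when any of 10, 10 and 13 single arrays was left out (adjusted p up to 0.164, 0.130 and 0.207). That of NUTF2 and MT1L, which had 26 alternatives, was lost without G10 replicate 3 or 4 (up to 0.0683). It was also lost against PCDNA3 alone and with array weights (up to 0.103). The calls of MT1JP and MT4 were lost against A375 alone and against PCDNA3 alone. They were also lost with further quantile normalization and with median centring. The call of MT1HL1 was lost against PCDNA3 alone and with array weights.

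**Figure D3:**
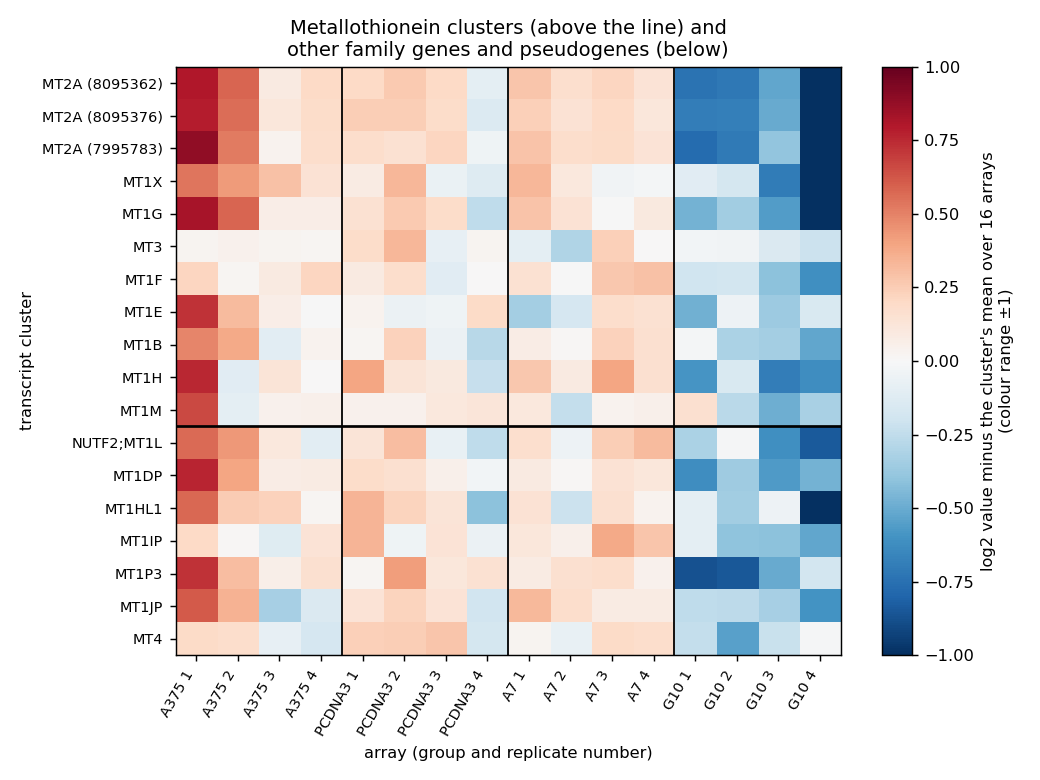
Log2 value of each cluster on each array minus that cluster's mean over the 16 arrays, as colour over ±1, with values beyond drawn in the end colours, for the 11 metallothionein clusters (above the line) and the 7 other family clusters (below). The 4 G10 columns are blue for most clusters, and A375 array 1 is the reddest column.

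The 10 listed regulators of the family were all measured above the olfactory receptor level. In G10 against control, where 7.90% of all clusters were lower and 9.92% higher, 1 of the 10 was called lower and 0 higher. That gene was NR3C1, the glucocorticoid receptor, which was lower by -0.48 (standard error 0.11, adjusted p = 0.00594), with every G10 array below every control array. With G10 arrays 1 and 2 left out NR3C1 was not called (-0.20, adjusted p = 0.166). MTF1, the zinc sensor, differed by 0.12 (adjusted p = 0.663), NFE2L2, the oxidant-response factor NRF2, by 0.10 (adjusted p = 0.586), and KEAP1, its repressor, by -0.34 (adjusted p = 0.102). SP1, USF1, USF2, STAT3, CEBPB and HSF1 lay between -0.26 and 0.18. In A7 none of the 10 was called in limma, beside 2.23% of all clusters lower and 3.46% higher. HSF1, the heat shock factor, differed there from control by -0.39 (adjusted p = 0.0568). Between the clones, HSF1 was higher in G10, at 0.57 (adjusted p = 0.00604). Transcript levels say nothing of the activity of these factors.

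Zinc transporters were called in both directions, as were all clusters, of which 7.90% were lower and 9.92% higher in G10 against control. In A7 these shares were 2.23% and 3.46%. Of 11 exporters of the SLC30 group and TMEM163, 1 was higher in G10 against control and 0 lower. This was SLC30A6, which loads zinc into the Golgi, at 0.91 (standard error 0.07, adjusted p = 2.84e-07). SLC30A1, the plasma membrane exporter and a target of MTF1, differed by -0.23 in G10 against control (adjusted p = 0.151) and by -0.43 in G10 against A7, where it was called (adjusted p = 0.0173) but lost when A7 replicate 1, G10 replicate 1 or G10 replicate 2 was left out (up to 0.0627). Of 14 importers of the SLC39 group, 3 were higher in G10 (SLC39A8 at 0.64, SLC39A6 at 0.54 and SLC39A11 at 0.50) and 2 lower (SLC39A10 at -0.44 and SLC39A14 at -0.37). The call of SLC39A14 was lost when any of 10 single arrays was left out (adjusted p up to 0.169) and against A375 alone (-0.18, adjusted p = 0.484), and that of SLC39A10 against PCDNA3 alone (0.0569). With G10 arrays 1 and 2 left out SLC39A11 (0.35, adjusted p = 0.0796), SLC39A10 (-0.38, 0.0642) and SLC39A14 (-0.15, 0.539) were not called, and SLC30A1 was not called against A7 (-0.26, 0.209). In A7 SLC39A8 was the sole importer called, higher by 1.04 (adjusted p = 4.02e-06). With 1 cluster per gene, the median difference in G10 was 0.03 over the exporters and -0.01 over the importers. It was -0.44 over the 9 measured metallothionein genes taken in the same way. Over the 11 metallothionein clusters, 3 of them of MT2A, the median was -0.66, and over all clusters it was -0.04.

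Copper and iron genes were also called in both directions. Their counts stand beside 7.90% of all clusters lower and 9.92% higher in G10, and 2.23% lower and 3.46% higher in A7. Of 11 measured copper genes 3 were higher in G10, namely the copper pump ATP7B (0.81, adjusted p = 0.000666) and the copper chaperones of cytochrome oxidase SCO1 (0.57) and COX11 (0.51), and 2 were lower, namely SLC31A2 (-0.32) and the cytosolic chaperone ATOX1 (-0.28). None was called in A7. Of 10 measured iron genes 2 were higher in G10 (SLC11A2 at 0.71 and STEAP3 at 0.32) and 1 lower (SLC39A14, which also stands among the zinc importers). In A7 the iron exporter SLC40A1 was higher by at least 0.46 (measured 1.00, adjusted p = 0.0144, control below the olfactory receptor level), SLC25A37 was higher by 0.45 and HMOX1, heme oxygenase, was lower by -0.91 (adjusted p = 0.0395). The control means of HMOX1 were 7.87 in A375 and 9.11 in PCDNA3, and its call was lost against A375 alone (adjusted p = 0.693) and when any of 10 single arrays was left out (up to 0.132). The calls of STEAP3 in G10 (any of 8 single arrays, adjusted p up to 0.147), ATOX1 in G10 (G10 replicate 4, 0.0564) and SLC40A1 in A7 (A7 replicate 2, 0.0721) were also lost without those arrays. Against A375 alone ATP7B and SLC31A2 in G10 (adjusted p = 0.0505 and 0.113) and SLC25A37 and SLC40A1 in A7 (0.0992 and 0.0816) did not pass. ATOX1 (0.0656) and STEAP3 in G10 did not pass against PCDNA3 alone. Over 27 alternatives the adjusted p of STEAP3 in limma reached 0.344. With G10 arrays 3 and 4 left out STEAP3 (0.13, adjusted p = 0.472) and ATOX1 (-0.26, 0.101) were not called, and with arrays 1 and 2 left out ATOX1 (-0.31, 0.0732), SLC31A2 (-0.26, 0.113) and SLC39A14 were not.

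Genes that metals, oxidants or stress induce along with metallothioneins were called lower in 3 of 15 measured cases in G10 and higher in 0. Of all clusters 2.23% were lower and 3.46% higher in A7, and 7.90% lower and 9.92% higher in G10. EGR1, an immediate early transcription factor, was lower by -1.0 (standard error 0.13, adjusted p = 6.39e-05), the cystine transporter SLC7A11 by -1.04 (standard error 0.27, adjusted p = 0.0117) and GCLM, a subunit of glutathione synthesis, by -0.43 (adjusted p = 0.0422). In A7 3 were lower (HMOX1, GCLM and SRXN1) and 1 higher (GDF15 at 0.68, adjusted p = 0.00448). GCLM lost its call when any of 13 single arrays was left out in G10 (adjusted p up to 0.181) and any of 11 in A7 (up to 0.117), SRXN1 any of 12 in A7 (up to 0.157), and SLC7A11 without G10 replicate 1 or 2 (up to 0.0607). Against A375 alone GCLM differed by -0.12 in G10 (adjusted p = 0.715) and -0.20 in A7 (0.611), and SRXN1 by -0.31 in A7 (0.295). SLC7A11 in G10 also did not pass against A375 alone (0.0641). SLC7A11 read 8.59 and 8.62 on G10 arrays 1 and 2 and 10.18 and 10.21 on arrays 3 and 4, and with arrays 1 and 2 left out it differed by -0.25 (0.306) and GCLM by -0.10 (0.668). Of 9 measured glucocorticoid-induced genes 2 were higher in G10, TSC22D3 at 1.06 (adjusted p = 5.84e-06) and PER1 at 0.31 (adjusted p = 0.0466). CRISPLD2 was lower by at least 0.06 (measured -0.66, adjusted p = 0.00121, G10 below the olfactory receptor level). In A7 2 were lower, ERRFI1 at -0.78 (adjusted p = 0.00838) and CRISPLD2. PER1 lost its call when any of 13 single arrays was left out (adjusted p up to 0.209) and with G10 arrays 1 and 2 left out (0.09, 0.591). CRISPLD2 in A7 lost its call without A7 replicate 1, 2 or 3 (up to 0.0741) and against PCDNA3 alone (0.113).

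Genes around the family were also called in G10. Within 1 Mb of the 10 genes, 29 neighbouring genes were measured. Of these 9 were called lower in G10 against control and 0 higher, beside 7.90% of all clusters lower and 9.92% higher. CPNE2, a calcium-binding copine, was lower by -0.66 (adjusted p = 0.000139), ADGRG1, an adhesion receptor, by -0.49 (adjusted p = 0.00213), PLLP, a membrane protein of myelin, by -0.49 (adjusted p = 0.0144) and NUP93, a nuclear pore subunit, by -0.48 (adjusted p = 0.00284). The call of PLLP was lost without G10 replicate 2 or 4 (adjusted p up to 0.0546), against A375 alone (0.0551) and without arrays 3 and 4 (-0.40, 0.126). That of NUP93 was lost without arrays 1 and 2 (-0.23, 0.0797). NUP93 is the closest measured neighbour on the MT1X side, and BBS2, the closest on the MT3 side, differed by 0.07 (adjusted p = 0.894), between control means of 9.35 in A375 and 8.31 in PCDNA3. BBS2 read 9.45 and 9.46 on G10 arrays 1 and 2 and 8.18 and 8.47 on arrays 3 and 4. The median difference of the 29 neighbours was -0.12, beside -0.04 over all clusters. In A7 3 neighbours were higher, CES5A by at least 1.95, ADGRG3 by at least 0.42 and ADGRG1 by 0.45, and DOK4 was lower by -0.60 (adjusted p = 0.000323). ADGRG1 in A7 was not called without A7 replicate 1 or 2 (adjusted p up to 0.0555) or against A375 alone (0.112). These A7 counts stand beside 2.23% of all clusters lower and 3.46% higher. In G10 against A7 10 of the 29 were lower and 2 higher, beside 7.38% of all clusters lower and 7.83% higher. The largest were CES5A, lower by at least 1.78, ADGRG1 at -0.93, CPNE2 at -0.79 and PLLP at -0.74.

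**Figure D4:**
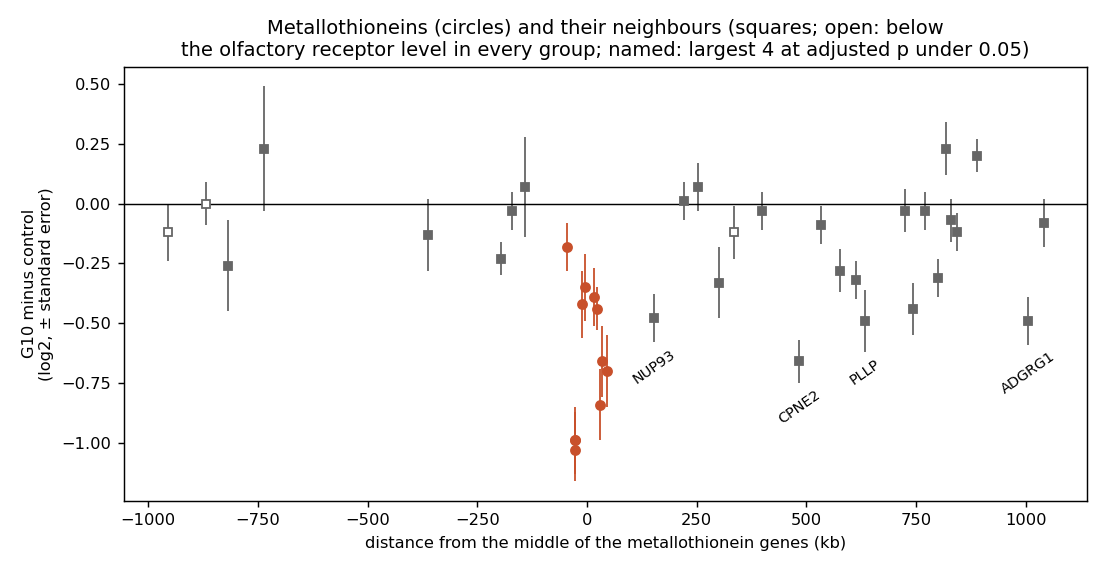
Difference of G10 from control (y axis, log2, with standard error) of the metallothionein clusters (circles, with all 3 MT2A clusters drawn at the gene, a position assumed for 8095362 and 8095376) and of the 29 measured neighbours (squares), by distance in kb from the middle of the family (x axis). The circles go down to -1.03 and the lowest square, CPNE2, to -0.66.

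The average of the 10 metallothionein clusters above the olfactory receptor level, 3 of them of MT2A, was matched to other genes. Those whose values most resembled it were named from 14002 candidate genes by Pearson r over the 16 arrays. They were CSPG4, a melanoma surface proteoglycan (r = 0.942), PDGFA, a growth factor (0.940), FN1, fibronectin (0.933), ALDH1L2, a mitochondrial folate enzyme (0.932), and TBXAS1, thromboxane synthase (0.930). The arrays share the groups, and with group means subtracted the r values were 0.60 to 0.85. CSPG4 read 7.29, 7.10, 7.15 and 6.63 in G10 and 8.18 or more on every other array, and its difference from control was -1.39 (adjusted p = 3.77e-07). All 5 were called lower in G10 against control, with FN1 at -2.28 and TBXAS1 at -0.82 as the extremes, and none was called in A7. The choice by r made such calls likely beforehand, because the average they were matched to was lowest in G10. They are therefore not a separate result.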

How the data were processed

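RNA of A375, PCDNA3, A7 and G10 cells was measured on 16 arrays. The authors made the log2 values with RMA, and these were used as deposited. The authors' versions of RMA and limma are not known from the sources used here. Clusters were named by the array annotation (19460 of 33297 with 1 symbol, 1754 with several, 12083 with none). A model with 1 mean per group was fitted in R 4.3.3 with limma 3.58.1 (lmFit, eBayes, 3.57 prior and 12 residual degrees of freedom), with Benjamini-Hochberg adjustment across the whole array. The script was tested on simulated data. Replicate numbers in the labels did not pair the arrays: of 24 same-numbered pairs 3 correlated over 0.1 (range -0.16 to 0.23).

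Named were all metallothionein clusters, CAT, other family genes, regulators, up to 4 called genes per list and comparison, and the 5 most similar genes. ATOX1 and BBS2 were added after their values were seen, as was MT1P3. The members and lists were chosen with earlier results of these data known. Alternatives changed the control, normalization, variance model, filter or limit, added a replicate block, or left out single arrays. The number of arrays limits precision. Figures were drawn with matplotlib 3.10.9.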

Additional observations from a re-analysis of the deposited data

Results flagged for a closer look

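A metallothionein value stood far from its group. MT2A (cluster 8095376) read 11.46 on PCDNA3 array 4, and the other PCDNA3 arrays read 11.78 to 11.84. It was found in 1 of 44 groups tested by Dixon's criterion, which chance passes for about 1 in 20 groups.

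The effect of G10 against control differed from that of A7 against control, as tested by G10 against A7 in limma, for MT2A by -0.92 (cluster 7995783), -0.95 (cluster 8095362) and -0.89 (cluster 8095376), for MT1F by -0.53, for MT1H by -0.75, for MT1X by -0.60 and for MT1G by -0.73. Both effects use the same control arrays, which cancel in the difference.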

How the results depend on the processing

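At a log2 difference of at least 1 with an adjusted p under 0.001, 1 metallothionein cluster stayed lower in G10 against control, in place of 9, and 0 in G10 against A7, in place of 7, because most differences are under 1. Under the other alternatives that left out at most 1 array, 7 to 9 clusters were lower in G10 against control and 6 to 8 in G10 against A7. With G10 replicates 3 and 4 left out, chosen after seeing the data, 4 were lower in each comparison. With replicates 1 and 2 left out 9 and 8 were. No called difference changed its sign. MT2A kept its calls under all of these at an adjusted p under 0.05. MT1G, MT1F and MT1H lost theirs only with a pair of G10 arrays left out. Against PCDNA3 alone and with array weights, 7 were lower in G10. With the replicate block 9 clusters were lower in G10 against control and 8 in G10 against A7, with MT1E lost and MT1M gained against control, and MT1B gained against A7. The replicate numbers are no known pairing, and 5 of 16 arrays resembled most an array of their own number in another group. MT1M lies below the level of unexpressed genes, so its signal over background is too low to measure a change. Outside the 11 clusters, 50 of 81 further called differences, of listed, family, neighbouring and most similar genes, kept their call in every alternative that left out at most 1 array and none changed sign. The most similar genes among them were picked by their values on these same arrays.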
